A study of Homo sapiens with 11 samples.

Results

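The metallothionein cluster on chromosome 16 was described in HK2 cells, an immortalised line from the human kidney proximal tubule. The 10 genes MT1A, MT1B, MT1E, MT1F, MT1G, MT1H, MT1M, MT1X, MT2A and MT3 were taken by name, out of 58288 genes in the RNA-seq data, of which 19645 were protein-coding genes that could be compared with them. All libraries came from cells kept in DMEM-F12 medium with 10% FBS, 1% penicillin-streptomycin and 0.05% DMSO. The study held 1 condition with no metal treatment in the labels, so levels and peak positions are given as a description and no test was made. RNA was measured in 2 libraries, and the histone marks H3K4me3, H3K27ac and H3K27me3 had 2 ChIP-seq replicates apiece. No source used here states that the libraries or replicates came from separate cultures, and the SD between them may be technical.

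Metallothioneins are small, cysteine-rich proteins that bind zinc and copper and also sequester cadmium. Their genes are switched on by metals through MTF1, a zinc finger factor that binds short metal response elements in their promoters, and glucocorticoids and oxidative stress also act on several of them. The proximal tubule takes up cadmium bound to metallothionein, which makes it a main site of cadmium injury in the kidney. MT2A and the MT1 genes are made in many tissues, while MT3 is best known from the brain.

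RNA levels are given as FPKM, fragments mapped to a transcript, scaled for its length and for the size of the library. Of 5 epithelial markers, 4 had at least 1 FPKM in both libraries, a level reached by 58.8% of all protein-coding genes. The exception was CDH1, the epithelial cadherin, at 0.210 and 0.283 FPKM. Of 10 proximal tubule markers only GGT1, a brush border peptidase (64.1 and 58.1 FPKM), and SLC5A2, the tubular glucose transporter (1.56 and 2.36), reached that level, while LRP2, SLC22A6 and SLC22A8 were among those listed at 0. None of 3 podocyte, 4 distal nephron or 2 endothelial markers nor the blood marker PTPRC reached it, and of 3 fibroblast markers LUM did (3.48 and 3.33 FPKM). The deposited coverage corresponds to 4.54 and 4.42 Gb of sequence aligned within annotated transcripts in libraries 1 and 2.

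Metallothionein RNA was abundant, and nearly all of it came from 3 of the 10 genes. The summed level of the cluster was 2850 FPKM in library 1 and 2894 in library 2, or 2872 ± 30.9 (SD, n = 2). That was 0.786% and 0.805% of the FPKM of all genes. MT2A, MT1E and MT1X together made up 95.2% and 95.1% of the cluster's FPKM. These are values of bulk RNA, in which more cells making a transcript and more RNA per cell cannot be told apart.

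MT2A (ENSG00000125148, chromosome 16 from 56642496 to 56643409 in hg19), the broadly made member, was at 1700 FPKM in library 1 and 1684 in library 2, a mean of 1692 ± 11.7. It ranked 9 among the 19645 protein-coding genes and alone gave 58.9% of the cluster's FPKM. The libraries were nearly equal, and neither reached down to the level of any other member.

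Among the MT1 genes, MT1E (ENSG00000169715, 56659387 to 56661024) was highest at 636 and 638 FPKM (637 ± 1.32, rank 64). MT1X (ENSG00000187193, 56716382 to 56718108) followed at 376 and 428 FPKM (402 ± 37.2, rank 101), and MT1F (ENSG00000198417, 56691643 to 56694610) was at 88.2 and 96.1 FPKM (92.1 ± 5.54, rank 544). The libraries of these 3 genes did not overlap with each other. On the log2(FPKM + 1) scale MT1X was the member that differed most between libraries, by 0.19 in favour of library 2. As a share of the mean, the SD was larger for MT1A, at 12.7%, than for MT1X, at 9.24%.

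MT1M and MT1G lay close together and well below. MT1M (ENSG00000205364, 56666571 to 56667893) was at 24.9 and 25.3 FPKM (25.1 ± 0.283, rank 2723) and MT1G (ENSG00000125144, 56700642 to 56701977) at 21.7 and 19.7 FPKM (20.7 ± 1.39, rank 3343), so that the lowest MT1M library stood just above the highest MT1G library. MT1A (ENSG00000205362, 56672578 to 56673999) was the lowest member detected, at 2.49 and 2.08 FPKM (2.29 ± 0.290, rank 10603). MT1B (ENSG00000169688, 56685798 to 56687116), MT1H (ENSG00000205358, 56703726 to 56705041) and MT3 (ENSG00000087250, 56622986 to 56625000) were listed at 0 in both libraries, and the order among these 3 is undefined.

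**Figure D1:**
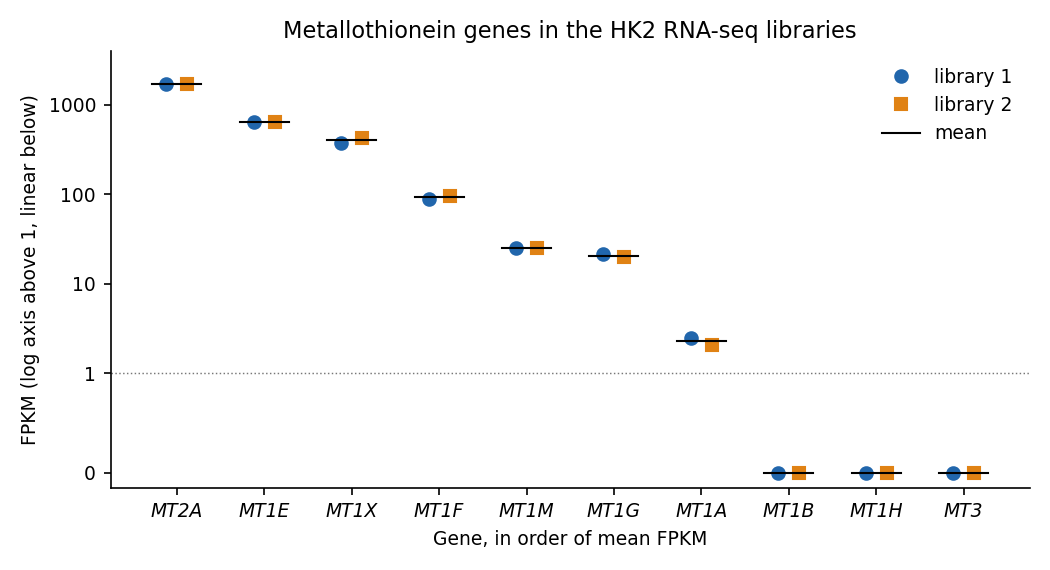
FPKM of the 10 metallothionein genes in RNA-seq libraries 1 (circles) and 2 (squares) with the mean of both as a line, on an axis that is logarithmic above 1 FPKM and linear below. The 7 detected genes run from 1692 FPKM for MT2A down to 2.29 for MT1A without overlap between neighbours, and MT1B, MT1H and MT3 lie at 0.

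Each step down this order was larger than the gap between libraries. The mean of MT2A was 2.66-fold that of MT1E, MT1E was 1.58-fold MT1X, MT1X was 4.36-fold MT1F and MT1F was 3.67-fold MT1M. The narrowest step, 1.21-fold, separated MT1M from MT1G, and the widest, 9.04-fold, separated MT1G from MT1A. With 2 libraries, ranges that do not overlap are a description of these libraries and not a test.

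In all, 7 of the 10 genes had at least 1 FPKM in both libraries, compared with 58.8% of protein-coding genes, so the share of detected genes in the cluster was not far from that background. The levels themselves were widely spread. The median of the 10 members was 22.9 FPKM against 3.32 for all protein-coding genes. The range went from 0 to rank 9 among the protein-coding genes. Noncoding genes and genes of the mitochondrial genome were not ranked. None of the 7 detected members differed by more than 2-fold between libraries on the FPKM + 1 scale, as did 0.885% of the protein-coding genes of mean FPKM of at least 1. On the log2 scale the library difference of the 7 members had a median of 0.00 and ran from −0.18 for MT1A to 0.19 for MT1X, whereas the central 90% of those protein-coding genes ran from −0.35 to 0.38.

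At each detected gene a single transcript carried nearly all of the FPKM. The share of the leading transcript was 99.6% for MT2A in both libraries and 100% for MT1A, which has 1 annotated transcript. It was 96.7% in both libraries for MT1E and 95.5% and 95.6% for MT1X, the lowest share among the members. The alternative transcript ENST00000564974 accounted for 4.21% and 4.20% of MT1X. All leading transcripts had 3 exons, the common structure of this family.

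Read coverage along these 3 exons was uneven, most of all in the 4 genes with the longest annotated exon 1. Exon 2 is 66 nt long in all 7 detected genes, which allows a comparison on a common length. For MT2A, mean coverage per base was 3644 and 3464 in exon 1, 27961 and 27329 in exon 2, and 16776 and 16147 in exon 3 in libraries 1 and 2. Exon 1 was thus far less covered than the rest of the transcript.

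The ratio of exon 2 to exon 1 coverage was 7.78 for MT2A, 7.10 for MT1E, 6.45 for MT1M and 4.37 for MT1F, whose exon 1 was annotated at 485, 405, 527 and 393 nt. It was 2.48 for MT1X (145 nt), 1.52 for MT1G (100 nt) and 1.04 for MT1A (101 nt). In the later GENCODE version 44 annotation, exon 1 of the same transcript is 385 nt shorter for MT2A, 426 nt shorter for MT1M, 265 nt shorter for MT1F and 46 nt shorter for MT1X. Exon 1 of MT1E, MT1G and MT1A has the same length in both versions.

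**Figure D2:**
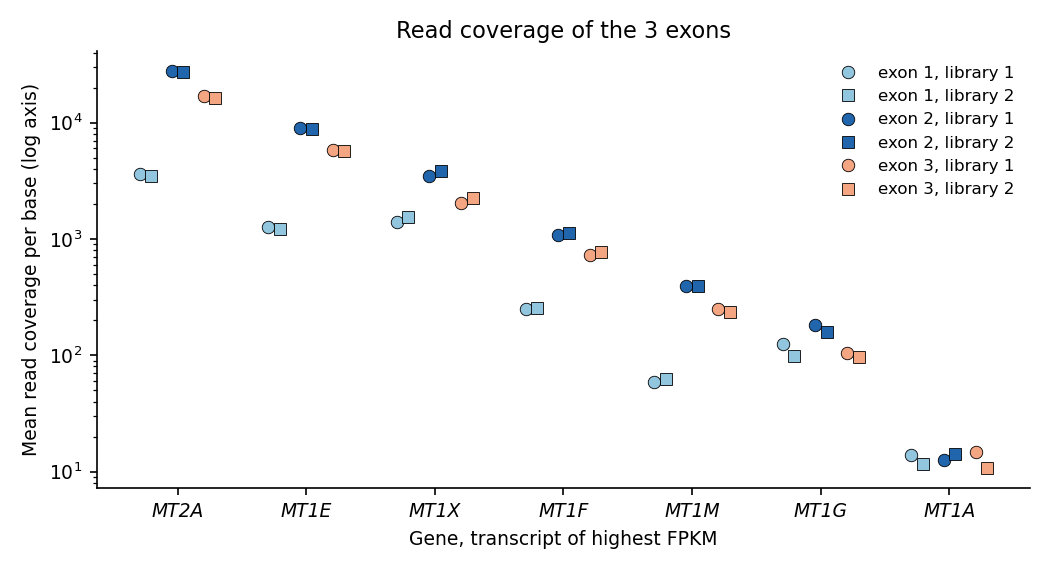
Mean read coverage per base (log axis) of exons 1, 2 and 3 of the leading transcript of each detected metallothionein gene, with library 1 as circles and library 2 as squares. Coverage of exon 1 falls furthest below that of exon 2 in MT2A, MT1E, MT1F and MT1M, and the 3 exons of MT1A lie between 10.7 and 14.7.

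FPKM divides fragments by the whole annotated length, which was 786 nt for the MT2A transcript, 829 nt for MT1M and 406 nt for MT1G. Coverage of exon 2 kept the order of the 7 genes but changed the distances between them. It was 2.32-fold higher in MT1M than in MT1G, where FPKM differed by 1.21-fold, and 2.42-fold higher in MT1E than in MT1X, where FPKM differed by 1.58-fold. The steps from MT1X to MT1F and from MT1F to MT1M narrowed, to 3.31-fold and 2.81-fold, from 4.36-fold and 3.67-fold in FPKM. MT2A exceeded MT1G by 163-fold in exon 2 coverage and by 81.8-fold in FPKM. This comparison was added after the data were seen.

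Because the genes are close copies, reads can fit more than 1 of them. The coding sequences of MT2A and the MT1 genes shared between 88.5% and 95.1% of aligned positions, MT1G and MT2A being the closest pair, with 174 of 183 positions alike. MT3 stood apart, at 73.5% to 77.5% with the other 9. Of the 50-base stretches of each reference transcript, 49.0% were unique to the gene for MT1X, 79.8% for MT1G, 85.4% for MT1M, 88.9% for MT2A, and between 93.9% and 94.7% for MT1A, MT1E and MT1F.

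At a length of 100 bases all stretches were unique for MT2A, MT1A, MT1E, MT1F, MT1G and MT1M, while MT1X had 78.0% unique and shared the others with ENSG00000259827. That long noncoding RNA starts at the same position and on the same strand as MT1X and was listed at 0, as was ENSG00000259923, which shares sequence with MT1B. How reads were divided between MT1X and its overlapping RNA, and whether strand was used, is not stated, so the MT1X level is uncertain to that extent. MT1G shared 50-base stretches with MT2A, MT1E and other members. MT1A shared them with MT1F, MT1G, MT1M and MT1X, but not with MT2A or MT1E. MT1M shared them with MT1A, MT1F, MT1G and MT1X. How reads from such stretches were divided is not stated either, so the low levels of MT1M, MT1G and MT1A are also uncertain.

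The 10 genes lay between 56622986 and 56718108 on chromosome 16 of hg19, a span of 95.1 kb, and all but MT1G were on the plus strand. From left to right the order was MT3, MT2A, MT1E, MT1M, MT1A, MT1B, MT1F, MT1G, MT1H and MT1X. With 20 kb on either side, the window of 135.1 kb (56602986 to 56738108) held 8 and 19 peaks of H3K4me3, a mark of promoters, in replicates 1 and 2. It held 8 and 9 peaks of H3K27ac, a mark of active promoters and enhancers, and 5 and 8 peaks of H3K27me3, the mark left by Polycomb repressors. Peak lists gave positions only, and the read depth behind a peak is unknown.

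The replicates differed in the number and width of peaks. In the paper's sequencing statistics, replicate 1 had the larger share of reads in peaks for H3K27ac and H3K4me3, with the wider gap for H3K27ac. For H3K27me3 the shares were close, and both were lower than any share of the other marks, so both H3K27me3 lists rest on weak enrichment. Whether this shaped the peaks called in the window was not tested. Replicate 2 of H3K4me3 listed 73942 peaks genome-wide and replicate 1 listed 29130, and the bases covered in the window were nonetheless 17152 and 17041. For H3K27ac, all bases covered by replicate 2 in the window were also covered by replicate 1, of which they made up 55.2%. For H3K27me3 the shared bases were 45.4% of replicate 1 and 52.4% of replicate 2.

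Called peaks of acetylated and trimethylated H3K27 alternated along the cluster. Weak signal between peaks cannot be judged from lists of positions. A mark was taken as present at a gene when a peak lay within 1 kb of an annotated transcription start site (TSS) in both replicates. H3K27ac was present at 5 genes, MT2A, MT1E, MT1M, MT1F and MT1X, and H3K27me3 at 4 others, MT3, MT1A, MT1G and MT1H, with neither at MT1B. In the window, no base was covered by both marks in both replicates.

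These shares differed most from the background for H3K27me3. H3K27me3 was at 4 of 10 members and at 11.4% of protein-coding genes. MT1G and MT1H rested on the same peak in replicate 2, and with peaks of at least 500 bp the count was 3. H3K27ac was at 5 of 10 members and 55.0% of protein-coding genes, and H3K4me3 at 7 of 10 members and 70.3%. For H3K27ac and H3K4me3 the cluster was thus near the background. The replicates agreed on H3K27ac at all 10 members, but 3 members, MT3, MT1B and MT1H, had H3K4me3 in replicate 2 alone, the replicate with more peaks.

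**Figure D3:**
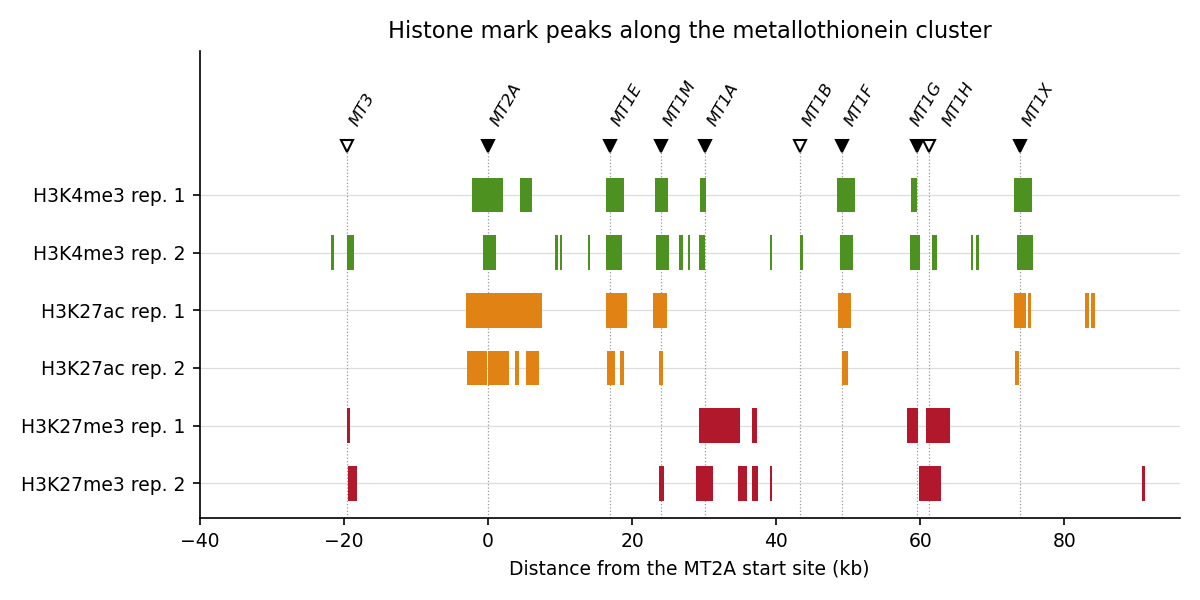
Peaks of H3K4me3, H3K27ac and H3K27me3 in each replicate along the window, as distance from the MT2A start site in kb, with a triangle at the 5′ end of each member (filled for a mean of at least 1 FPKM, open for genes listed at 0). H3K27ac peaks lie at MT2A, MT1E, MT1M, MT1F and MT1X, and H3K27me3 peaks at MT3, MT1A, MT1G and MT1H in both replicates.

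The H3K27ac peaks were broadest at MT2A, the most abundant member. In replicate 1, a single peak of 10514 bp ran from −3.01 to 7.51 kb around the MT2A TSS, and 0.884% of H3K27ac peaks in that replicate were at least as wide. In replicate 2 the same stretch was broken into 4 peaks, with the TSS in a gap between peaks of 2789 and 2863 bp. H3K4me3 at MT2A was 4336 bp wide in replicate 1 and 1808 bp in replicate 2.

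At the 4 acetylated MT1 genes the H3K27ac peaks were narrower. In replicates 1 and 2, MT1E had a peak of 3033 and 1023 bp nearest its TSS. MT1F had peaks of 1825 and 718 bp. Widths at MT1M were 1867 and 498 bp, and at MT1X 1710 and 493 bp, the replicate 2 peak at MT1X ending 222 bp before the TSS.

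MT1M was the acetylated member with the lowest FPKM and the only acetylated member with any H3K27me3 peak. That peak, of 772 bp, was called in replicate 2 alone, 23.7 to 24.5 kb from the MT2A TSS, and covered the MT1M TSS. In replicate 2 the bases with H3K27ac and H3K27me3 together came to 498 in the whole window, and in replicate 1 there were none.

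H3K27me3 was called in separate peaks. At MT1A it was 5779 bp wide in replicate 1 and 2388 bp in replicate 2, and covered the TSS in both. A peak of 3224 bp in replicate 1 and one of 2971 bp in replicate 2 covered the whole of MT1H. Of the 4 genes, MT3 had the smallest peaks, of 450 and 1134 bp.

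MT1G and MT1H are divergent neighbours whose TSS positions lie 59.5 and 61.2 kb from that of MT2A. In replicate 1, MT1G had its own H3K27me3 peak of 1473 bp over the TSS. The replicate 2 peak was the one over MT1H, whose nearer edge was 385 bp from the MT1G TSS and which lay outside the gene. The presence of H3K27me3 at MT1G in both replicates therefore rests on the distance of 1 kb, though it was also met at 500 bp.

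FPKM went with these marks across the cluster when a peak of any width in both replicates was required. The 5 genes with H3K27ac and without H3K27me3 had means from 25.1 to 1692 FPKM, and the 4 with H3K27me3 and without H3K27ac had means from 0 to 20.7. The ranges did not overlap, although MT1M and MT1G at their edges were close. MT1B, with neither mark, was listed at 0. With peaks of at least 500 bp, MT1X and MT1M would leave the class with H3K27ac and MT3 that with H3K27me3. The comparison was not repeated under that rule. Over all protein-coding genes the medians of these classes were 11.3 FPKM (10551 genes) and 0.0179 FPKM (1977 genes). Of the 5 acetylated members, MT2A, MT1E and MT1X lay above the 95th percentile of their class, 92.9 FPKM.

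**Figure D4:**
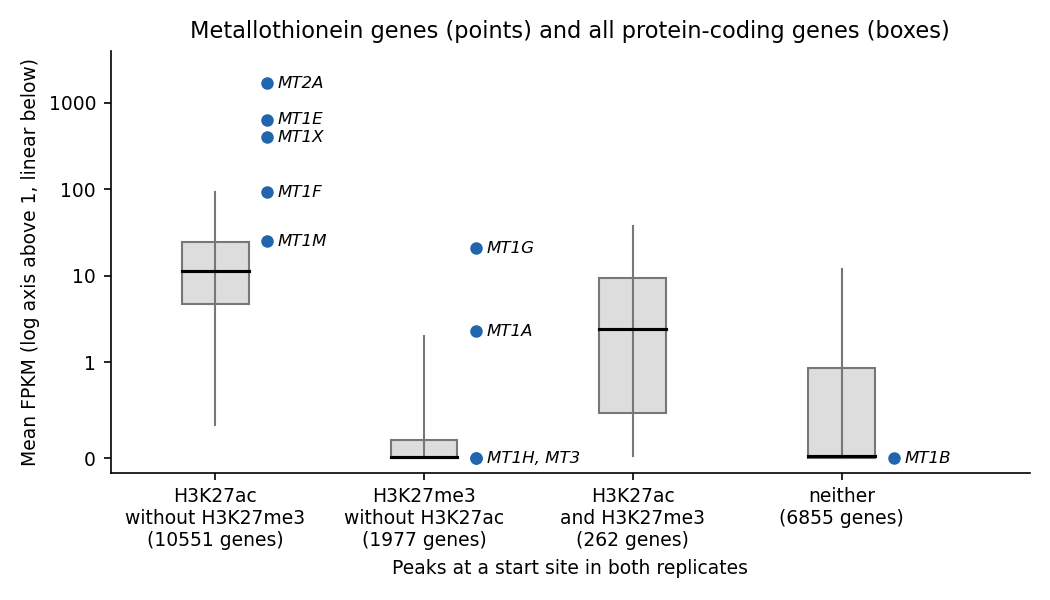
Mean FPKM (axis logarithmic above 1, linear below) by the H3K27 marks at start sites in both replicates, with boxes for the quartiles and median and lines for the 5th to 95th percentile of all protein-coding genes, and points for the metallothionein genes. MT1G and MT1A lie above the 95th percentile of genes with H3K27me3 and no H3K27ac, 2.04 FPKM.

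MT1A and MT1G combined H3K4me3 and H3K27me3 with no H3K27ac, a pattern often called bivalent and found at 5.73% of protein-coding genes. Both were nonetheless listed with at least 1 FPKM in both libraries. At MT1G the H3K27me3 call in replicate 2 was the peak over MT1H. Of the 1126 genes with this combination, 14.7% had at least 1 FPKM in both libraries and 1.60%, or 18 genes, had a mean of at least 10 FPKM. MT1G, at 20.7 FPKM, ranked 5 among them and MT1A, at 2.29 FPKM, ranked 88. The members with H3K27me3 that were listed at 0, MT1H and MT3, had H3K4me3 in replicate 2 only. Peaks come from a population of cells and do not show whether both marks sat on the same chromosomes. The part in the MT1G and MT1A levels of reads from other members was not tested.

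Reference promoters of 4 members were read from RefSeq, those of MT2A, MT1X, MT1H and MT1B. MT1A, MT1E, MT1F, MT1G, MT1M and MT3 were not in that table. The metal response element core was searched as TGCACNC or TGCGCNC on both strands from 250 bases before to 50 bases after the RefSeq TSS. The 250 bases before the TSS are shown 5′ to 3′ on the gene's strand in GRCh38.p14, because they set the most abundant member beside 1 abundant MT1 gene and 2 members listed at 0. Capitals mark the matches on either strand.
MT2A (chr16:56608334-56608583, plus strand): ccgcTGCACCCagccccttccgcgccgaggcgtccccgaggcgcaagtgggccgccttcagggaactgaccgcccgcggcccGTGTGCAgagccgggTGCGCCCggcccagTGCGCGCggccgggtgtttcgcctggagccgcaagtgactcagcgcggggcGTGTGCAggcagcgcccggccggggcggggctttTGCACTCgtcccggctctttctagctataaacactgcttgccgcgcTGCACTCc
MT1X (chr16:56682220-56682469, plus strand): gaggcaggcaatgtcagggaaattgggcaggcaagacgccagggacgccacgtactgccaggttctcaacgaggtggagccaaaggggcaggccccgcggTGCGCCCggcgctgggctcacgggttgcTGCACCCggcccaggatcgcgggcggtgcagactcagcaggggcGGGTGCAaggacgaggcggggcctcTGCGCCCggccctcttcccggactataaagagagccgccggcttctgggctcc
MT1H (chr16:56669564-56669813, plus strand): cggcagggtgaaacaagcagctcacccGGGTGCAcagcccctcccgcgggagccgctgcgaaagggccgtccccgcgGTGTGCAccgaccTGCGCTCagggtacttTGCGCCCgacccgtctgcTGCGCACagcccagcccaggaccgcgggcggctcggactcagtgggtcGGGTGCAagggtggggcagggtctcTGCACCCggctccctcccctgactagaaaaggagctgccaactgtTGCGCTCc
MT1B (chr16:56651636-56651885, plus strand): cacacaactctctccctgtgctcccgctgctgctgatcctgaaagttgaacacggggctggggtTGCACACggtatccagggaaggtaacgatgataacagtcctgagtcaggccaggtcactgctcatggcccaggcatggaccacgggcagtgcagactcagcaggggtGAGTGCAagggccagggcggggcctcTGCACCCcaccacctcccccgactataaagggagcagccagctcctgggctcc

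All 4 promoters held the core, as did 29.6% of 35116 RefSeq promoters. MT2A had 8 matches, 1 of them after the TSS, MT1H had 8, MT1X had 4 and MT1B had 3, where the median promoter had 0. At least 5 matches were present in 0.162% of all promoters. No match overlapped another within a promoter.

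The number of matches did not follow the level of RNA. MT2A at 1692 FPKM and MT1H, listed at 0, both had 8 matches, a number reached by 0.0199% of RefSeq promoters. MT1X at 402 FPKM had 4, reached by 0.601%, and MT1B, listed at 0, had 3, reached by 2.30%. The reference promoters of MT2A and MT1X were in H3K27ac peaks or next to them, that of MT1H was within H3K27me3 and that of MT1B was in neither.

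The promoters were alike in where the core lay. Counting from the TSS, with bases before it negative, a match on the gene's strand began at −53 in MT1X, MT1H and MT1B and at −54 in MT2A. A match on the other strand began at −78 in MT1X and MT1H, at −79 in MT1B and at −88 in MT2A. MT2A and MT1H also shared a match that began at −8. These genes are copies of each other, so the positions are not independent.

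**Figure D5:**
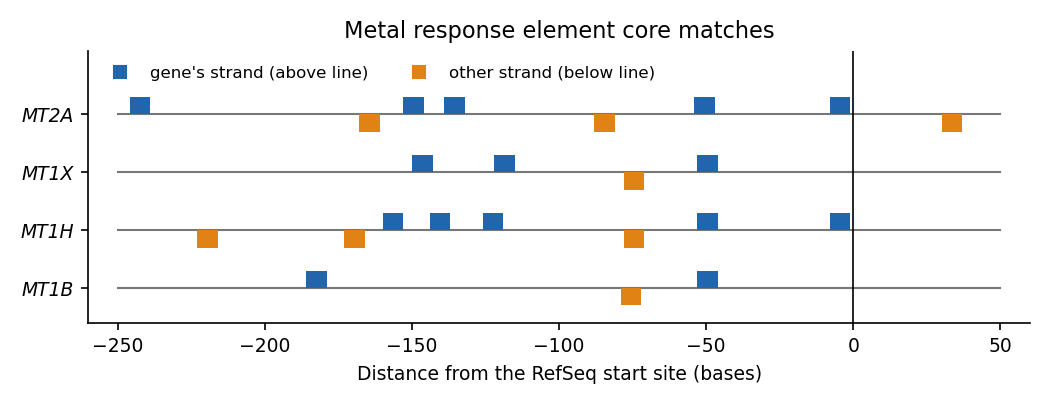
Positions of the metal response element core in 4 reference promoters, in bases from the RefSeq TSS (vertical line), with matches on the gene's strand above each line and on the other strand below. All 4 have a match that begins at −53 or −54 and another that begins between −88 and −78, and MT2A and MT1H have the most, with 8 each.

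The promoters of MT2A, MT1X and MT1H were rich in G and C, at 72.0%, 67.0% and 68.3% of 300 bases with 37, 26 and 25 CpG dinucleotides, against medians of 58.7% and 14 over all promoters. MT1B had 60.3% and 7 CpG dinucleotides. The letters TATAAA, searched on the gene's strand after the sequences had been seen, began at −29 in MT2A and at −30 in MT1X and MT1B. They were absent from the MT1H window and present in 7.33% of RefSeq promoters. A match is a description of the letters and not evidence of binding.

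The regulators of these genes were expressed in the same libraries. MTF1, the metal-responsive factor, was at 4.66 and 5.45 FPKM. USF1, a helix-loop-helix factor that acts at metallothionein promoters, was at 21.7 and 20.6 FPKM, SP1 at 17.7 and 17.4, and the glucocorticoid receptor gene NR3C1 at 7.79 and 9.71. All 5 regulators listed, with NFE2L2 as the other, had at least 1 FPKM and H3K4me3 and H3K27ac at a TSS in both replicates, which over all protein-coding genes held for 58.8%, 70.3% and 55.0%, each taken alone.

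Of 39 genes of zinc, copper, cadmium and iron handling and metallothionein regulation, 32 had at least 1 FPKM in both libraries, 34 had H3K4me3, 27 had H3K27ac and 4 had H3K27me3. Over all protein-coding genes the shares were 58.8%, 70.3%, 55.0% and 11.4%, so that H3K27me3 was about as frequent in the list as in the background. Their median was 14.5 FPKM and the highest was SOD1, the copper and zinc superoxide dismutase, at 176 and 150 FPKM. MT2A, MT1E and MT1X were above all 39.

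Zinc exporters were detected in 6 of 10 cases, near the 58.8% of all protein-coding genes. SLC30A1, the plasma membrane exporter that MTF1 also controls, led at 21.2 and 23.4 FPKM, ahead of SLC30A6 at 16.4 and 13.8 and SLC30A5 at 13.7 and 12.8. SLC30A8 and SLC30A10 were listed at 0.

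Zinc importers were detected in 11 of 14 cases, against the same 58.8%. SLC39A7, which releases zinc from the endoplasmic reticulum, was at 104 and 103 FPKM, and SLC39A14, which carries zinc and also iron, manganese and cadmium, was at 29.8 and 30.9. SLC39A1 was at 18.7 FPKM in library 1 and 53.7 in library 2, so its libraries differed widely. SLC39A8, a route of cadmium entry, was at 15.5 and 14.7 FPKM and carried H3K4me3, H3K27ac and H3K27me3 in both replicates.

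All 8 copper handling genes were detected, against 58.8% of protein-coding genes, with SOD1 followed by the copper chaperones ATOX1, at 40.8 and 42.5 FPKM, and COX17, at 18.7 and 17.6. Both genes listed for cadmium and iron entry were detected, TFRC, the transferrin receptor, at 59.3 and 62.3 FPKM, and SLC11A2, a divalent metal transporter, at 14.5 and 11.1.

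Other copies of the family in the window were silent or nearly so. The pseudogene MT1L, between MT2A and MT1E, was at 0.209 and 0.101 FPKM with an H3K4me3 peak in replicate 2 alone. MT1JP was at 0.00219 FPKM in library 1 and listed at 0 in library 2. MT1DP, MT1CP and MT1IP were listed at 0, as was MT4, which lies just outside the window. MT1DP, between MT1A and MT1B, had H3K27me3 at a TSS in both replicates.

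The protein-coding neighbour BBS2, a ciliary trafficking gene whose 5′ end lies in the left flank, was at 14.8 FPKM in library 1 and 23.4 in library 2. No peak of any of the marks lay within 1 kb of that 5′ end, and the H3K4me3 and H3K27ac peaks of BBS2, called in both replicates, were at start sites outside the window. No other protein-coding gene overlapped the window.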

How the data were processed

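The authors mapped RNA-seq reads with HISAT2 and deposited FPKM, TPM and coverage per transcript and exon from StringTie 1.3.3, per the file headers against GENCODE version 27 in GRCh38 coordinates, although the methods name hg19. The deposited ChIP-seq lists hold MACS2 peaks called in each replicate on uniquely mapped Bowtie2 alignments to hg19, with 3 columns and no score. A peak needs unique reads, so sequence shared between copies can lack signal. The unnumbered ChIP-seq sample of each mark was called replicate 1. Input DNA and HiChIP were not analysed here.

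FPKM was summed over the transcripts of a gene. TSS positions came from GENCODE version 44 mapped to GRCh37, joined by Ensembl identifier, with all TSS of a gene used and peaks within 1 kb counted. Coding sequences of the leading transcript (for genes at 0, the Ensembl canonical one) were aligned globally with scores of 2, −1 and −4 for match, mismatch and gap. Reference proteins were not used here. PECAM1 was not matched, and 1 marker gene is not reported here by name. Python 3.11.15, numpy 2.4.6 and matplotlib 3.10.9 were used, and the peak rule was tested on simulated data. With 1 condition no test was possible. FPKM carries no read count, so no counting interval is given. The members and gene lists were chosen with earlier results of these data known. Named genes are all members, other family copies and protein-coding genes of the window, the 3 highest genes of each metal list, MTF1, SLC30A1 and SLC39A8. NFE2L2, SLC30A8, SLC30A10, the noncoding genes and the marker genes given with values were named after their values were seen. Alternatives covered unit, libraries, transcripts, thresholds, pseudocount, windows, peak width and motif.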

Additional observations from a re-analysis of the deposited data

How the results depend on the processing

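No paired analysis was possible because no result comes from a test and all samples share 1 condition. The order of the 7 detected genes was the same in TPM, in the leading transcript alone, in coverage of exon 2 or exon 3, and in each library. TPM rescales all genes of a library alike and could not change the order within it. The leading transcript carried nearly all of each gene's FPKM, so that setting could change little. The summed level was 7952 in TPM, another scale, and 2823 FPKM with the leading transcript alone, and ran from 2850 to 2894 when a library was left out. Members with at least 1 FPKM numbered 7 with either library left out. With peaks of at least 500 bp, H3K27ac was counted at 3 members in place of 5, since the replicate 2 peaks of MT1M and MT1X are narrower. H3K27me3 was then counted at 3 members in place of 4, since the replicate 1 peak of MT3 is narrower. The H3K4me3 peaks in the window then numbered 9 in place of 19 in replicate 2, and stayed at 8 in replicate 1. Leaving out a replicate gave 7 to 10 members with H3K4me3, 4 to 5 with H3K27me3 and 5 with H3K27ac. The 10 came from replicate 2 alone. Levels, ratios and counts cannot be negative, and a pseudocount cannot change which library is higher for a gene. The sign of the members' library difference was therefore fixed in advance. Without the minimum FPKM, the median library difference of protein-coding genes was 0. The exon 2 and exon 3 ratios, added after the data were seen, moved the step from MT1E to MT1X to 2.42 and 2.68 and that from MT1M to MT1G to 2.32 and 2.42, wider than in FPKM. They narrowed the step from MT1X to MT1F to 3.31 and 2.87 and that from MT1F to MT1M to 2.81 and 3.07, while MT1G to MT1A became 12.7 and 7.92 and MT2A to MT1E 3.12 and 2.87. Peak calls without scores limit what can be said of weak peaks, and 2 libraries limit the SD.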
